A study of Mus musculus with 9 samples.

Results

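Myc and 36 other genes whose products build ribosomes in the nucleolus were followed across irradiated mouse fibroblasts in which Rela had been silenced. The 37 genes were picked by name for their known roles, and the rule uses no measured level, though the list was drawn up with earlier results of these data known. They are 37 of the 24062 genes in the count table, and all 37 passed the filter on low counts that left 15369 genes to test. The cells were mouse embryonic fibroblasts (MEF), which are cells grown out of mouse embryos, here of the C57BL/6 strain. All 3 groups had been made senescent with gamma rays, and all 3 were given a lentivirus with a short hairpin RNA at day 10 after irradiation. The control group, shScr, carried a scrambled hairpin. The other 2 groups, shRela-1 and shRela-2, each carried a different hairpin against Rela, which encodes p65, a subunit of NF-kB, a transcription factor of inflammation and stress. Each group has 3 replicates, 9 samples in all, and there was no unirradiated or untransduced group. No source used here gives the hairpin sequences. No label says that the replicates came from separate embryos or cultures, so p-values measure only how far these samples differ among themselves, which may be technical.

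Myc encodes a transcription factor that pairs with Max on the DNA letters CACGTG, the E-box, and drives genes of cell growth, among them many for ribosome production. Ribosomes start in the nucleolus, where RNA polymerase I copies the ribosomal DNA into a long precursor RNA. Small nucleolar ribonucleoproteins (snoRNPs) then modify this precursor, and many assembly factors cut it, fold it and load it with ribosomal proteins into the small and the large subunit. In fibroblasts the output of this pathway follows growth signals, and disturbed assembly frees ribosomal proteins that can stabilise p53.

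The samples held 49774667 to 67963506 counts, and a member's count in a sample ran from 566 for Gar1 to 40416 for Npm1. Levels are given as CPM, the usual count rate relative to the TMM-scaled total of a sample, and levels of different genes are not compared because CPM is not corrected for gene length. Rela itself, the check of the labels, was at 83.2 to 86.8 CPM in shScr and at 15.5 to 17.3% of the shScr mean in the 6 knockdown samples. Fibroblast markers were abundant in every sample, with a summed level over 12 genes of 53915 to 59474 CPM in shScr, 60532 to 63662 in shRela-1 and 52834 to 55786 in shRela-2. Other cell types' markers summed to far less. The 13 macrophage and blood markers overlapped between groups (433 to 626, 425 to 569 and 371 to 568 CPM in the same order), with the haemoglobin genes Hba-a1 and Hbb-bt at 0 throughout. Macrophage markers were present in every sample, among them Lyz2 (271.4 to 450.9 CPM), Laptm5 (25.3 to 40.0), Csf1r (15.9 to 33.4) and Ptprc (4.07 to 8.23). Aif1 was at no more than 0.652 CPM. Endothelial markers stayed between 4.78 and 6.48 CPM over 8 genes, with Tie1 at 0 in shScr. Muscle markers ranged over 291 to 539, 451 to 822 and 228 to 377 CPM, with Myf5 at 0 in shScr. Epithelial markers were higher in every shRela-1 sample (28.0 to 40.3 CPM over 9 genes) than in shScr (19.0 to 25.1) and shRela-2 (19.1 to 23.9), while neural markers were lower in shRela-1 (202 to 206 CPM over 8 genes) than in shScr (261 to 268) and shRela-2 (280.4 to 298). The muscle sum was mostly Des and Acta1, with Myod1, Myog, Myf5, Ckm and Pax7 at no more than 0.159 CPM in any sample. The neural sum was mostly Nes and Tubb3, with Sox2, Gfap, Sox10 and Olig2 at no more than 0.636 CPM. Stmn2 was at 10.8 to 27.7 CPM and Map2 at 1.28 to 2.96. Among the epithelial markers, Epcam, Cdh1, Krt14 and Esrp1 were at no more than 0.293 CPM. Krt19 was at 10.3 to 18.6 CPM, Krt18 at 3.66 to 16.5, Krt5 at 1.37 to 4.06, Cldn4 at 0.676 to 2.21 and Krt8 at 0.623 to 1.84. The sums alone are no count of muscle, neural or epithelial cells, and which cells these transcripts came from was not tested. The part of any other cell type in the results below was not tested. In bulk RNA, fewer cells of a type and less RNA per cell cannot be told apart. The shScr titles have a dataset tag that is missing from the shRela titles, so any library batch that goes with it and the knockdown itself cannot be told apart.

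RefSeq promoter windows, from 250 bases before to 50 after a start site in build GRCm38.p6, were at hand for 31 of the 37 genes. Myc, Fbl, Rrp12, Bop1, Rrs1 and Npm1 had no entry. The E-box CACGTG, which reads the same on both strands, lay in a window of 6 of these 31 genes (19.4%), compared with 1271 of 11360 tested genes (11.2%). The matches are shown with up to 12 bases on either side, 5′ to 3′ along the gene, because they are the letters Myc is known to bind. Capitals mark the E-box.
Nop2: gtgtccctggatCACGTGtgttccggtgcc
Utp20: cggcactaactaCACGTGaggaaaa
Pes1: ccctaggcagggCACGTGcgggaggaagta
Mybbp1a: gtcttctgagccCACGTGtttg
Tsr1: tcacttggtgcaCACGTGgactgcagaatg
Wdr43: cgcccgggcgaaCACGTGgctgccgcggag
The stretch of Nop2 (chr6:125131811-125131840, plus strand) has its E-box 60 bases upstream of the start site. In the others the motif begins downstream of the start site, at base 38 in Utp20 (chr10:88826765-88826789, minus strand), 3 in Pes1 (chr11:3963965-3963994, plus), 41 in Mybbp1a (chr11:72441355-72441376, plus), 25 in Tsr1 (chr11:74898092-74898121, plus) and 18 in Wdr43 (chr17:71616220-71616249, plus). These downstream positions count the start site itself as the first base. The kB consensus, the 10-letter motif that NF-kB is known to bind, searched on both strands, matched in 3 of the 31 genes (Dkc1, Tsr1 and Ubtf, 9.68%) and in 12.4% of tested genes. A match describes the letters of a window and is no measure of binding.

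Many of the ribosome biogenesis genes were lower with each hairpin, by small amounts. Only Fbl and Mybbp1a fell with both, and the share of all genes that did so is not given here. With shRela-1, 12 of the 37 (32.4%) fell and 0 rose at an adjusted p under 0.05, against 12.4% of all tested genes that fell and 12.3% that rose (edgeR quasi-likelihood test, two-sided, p adjusted by Benjamini-Hochberg over all 15369 genes). With shRela-2, 15 of 37 (40.5%) fell and 0 rose, against 15.4% of all genes in each direction. DESeq2 and limma voom also called 0 as rising in both comparisons, and at an unadjusted p under 0.05 edgeR had 0 as rising in both. With the replicate number as a block in the fit, 22 fell and 0 rose with shRela-2, against 22.2% of all genes in each direction, and 15 fell with shRela-1, against 18.9%. The members' log2 fold changes ran from -0.53 to 0.11 with shRela-1, with a median of -0.09 and 32 of 37 below 0. With shRela-2 they ran from -0.45 to 0.09, with a median of -0.13 and 34 below 0. The median of all tested genes was 0.00 in each comparison. All 3 knockdown samples lay below all 3 shScr samples for 18 members with shRela-1 (48.6%, against 19.5% of all genes) and for 20 with shRela-2 (54.1%, against 21.6%). All lay above for 0 members with shRela-1 (20.1% of all genes) and for 1, Nop14, with shRela-2 (22.5%). The comparisons share the 3 shScr samples, so their values are set side by side and are not independent of each other.

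The count with shRela-1 was sensitive to single samples. It was 6 on leaving out shScr replicate 3 and 7 on leaving out either shScr replicate 2 or shRela-1 replicate 1. Of the 12 members, Polr1b, Fbl, Nolc1, Bop1, Nip7 and Rrs1 kept the call whichever of the 9 samples was left out. With shRela-2, 10 of the 15 did so.

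**Figure D1:**
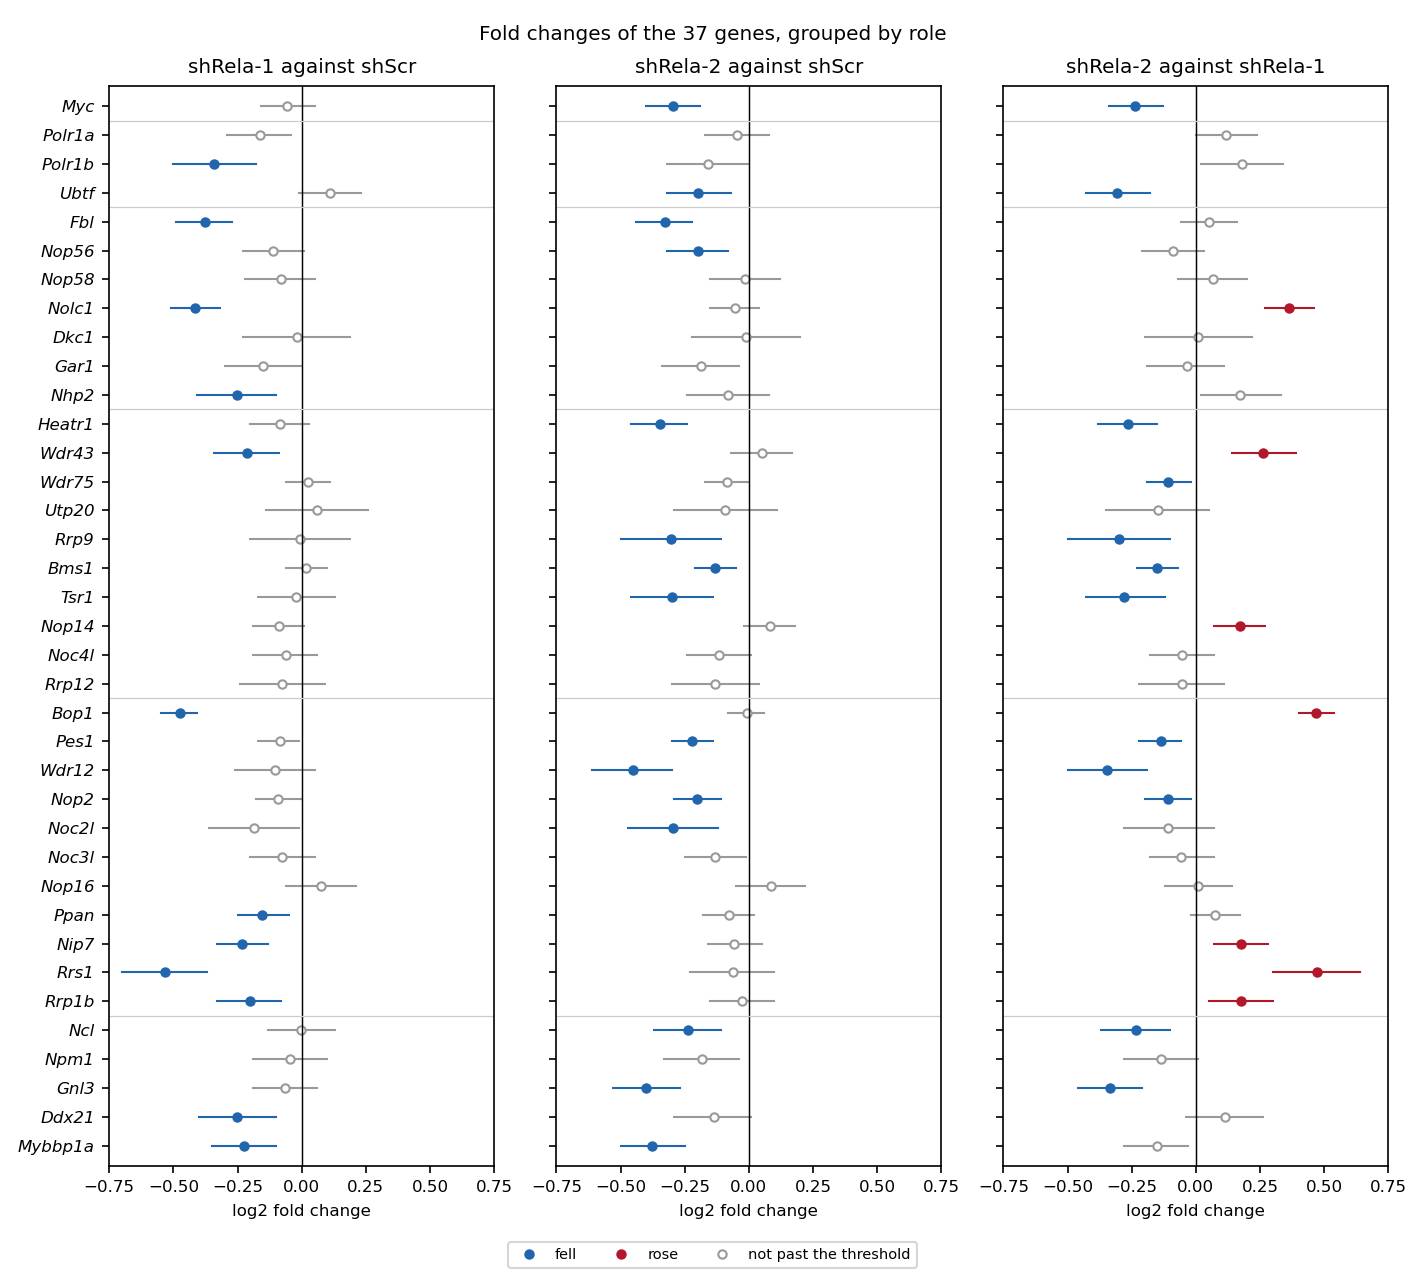
Log2 fold change of each of the 37 genes (rows, grouped by role with grey lines between the groups) in the 3 comparisons. Points are estimates from the fit over all 9 samples and bars are 95% intervals, with blue for genes that fell, red for genes that rose and open grey for those that did not pass an adjusted p of 0.05. Against shScr, 12 genes are blue for shRela-1, 15 are blue for shRela-2 and none is red, while the comparison between the hairpins has 7 red and 12 blue.

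Myc fell with shRela-2. Myc (chromosome 15, 61985391 to 61990374, plus strand, build mm10) was at 58.9, 60.2 and 58.5 CPM in shScr replicates 1 to 3, at 54.8, 59.1 and 56.7 CPM with shRela-1, and at 45.1, 48.3 and 51.3 CPM with shRela-2. The 3 shRela-2 samples were below all other samples, and the shRela-1 samples overlapped with shScr. The log2 fold change with shRela-2 was -0.29 ± 0.048 (± SE, here and below; edgeR adjusted p = 0.00105), which left 81.5% of the shScr mean. With shRela-1 it was -0.06 ± 0.048, with a 95% interval from -0.16 to 0.05 (edgeR adjusted p = 0.432). Between the hairpins Myc was lower with shRela-2 by a log2 fold change of -0.24 ± 0.048 (edgeR adjusted p = 0.00258). Leaving out single samples moved the shRela-2 value between -0.34 and -0.25 and ended no call of Myc.

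Of the 3 RNA polymerase I genes, Polr1b fell with shRela-1, Ubtf fell with shRela-2 and Polr1a passed the test with neither. Polr1b, which encodes the second-largest subunit of the polymerase (chromosome 2, 129100995 to 129126594, plus strand), was at 16.5, 18.2 and 18.9 CPM in shScr, 13.5, 14.3 and 14.6 CPM with shRela-1, and 15.2, 16.8 and 16.0 CPM with shRela-2. The shRela-1 samples were below all others, and the shRela-2 samples overlapped with shScr. Polr1b fell with shRela-1 by a log2 fold change of -0.34 ± 0.071 (edgeR adjusted p = 0.0055). With shRela-2 it was at -0.16 ± 0.071 (edgeR adjusted p = 0.115, or 0.036 with the replicate number as a block in the fit).

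Ubtf encodes UBF, the factor that holds ribosomal DNA open for transcription (chromosome 11, 102304560 to 102319742, minus strand). It was at 76.5, 84.1 and 84.7 CPM in shScr, 83.2, 92.8 and 88.9 CPM with shRela-1, and 67.1, 74.3 and 72.5 CPM with shRela-2. The shRela-2 samples lay below all others. Ubtf fell with shRela-2 (-0.20 ± 0.056, edgeR adjusted p = 0.0219), a call that was lost without shScr replicate 2 or 3 or shRela-2 replicate 1 (edgeR adjusted p from 0.0678 to 0.0861). Its value with shRela-1 was 0.11 ± 0.056 (edgeR adjusted p = 0.188). With the replicate block that value became the single rise among the 37 against shScr (edgeR adjusted p = 0.0104, with 20.4% of all genes rising in that fit). Polr1a, the gene of the largest subunit (chromosome 6, 71909053 to 71984935, plus strand), was at 52.0, 55.5 and 55.4 CPM in shScr, 46.7, 50.6 and 48.3 CPM with shRela-1, and 48.7, 52.9 and 56.5 CPM with shRela-2. The shRela-1 samples were below all shScr samples while those of shRela-2 spanned them. Its log2 fold change with shRela-1 was -0.16 ± 0.055 (edgeR adjusted p = 0.0548), past the threshold with the replicate block (0.00246), with a filter of 1 CPM in 3 samples (0.0492), in a fit of only the 2 groups (0.0326) and on leaving out shRela-1 replicate 2 (0.0495), shRela-2 replicate 1 (0.0289) or shRela-2 replicate 3 (0.0376). With shRela-2 it was -0.04 ± 0.055.

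Among the snoRNP genes, 3 of 7 fell with shRela-1 (42.9%, against 12.4% of all genes) and 2 of 7 with shRela-2 (28.6%, against 15.4%), and Fbl fell with each hairpin. Fbl encodes fibrillarin, the methyltransferase of the box C/D snoRNPs, which place methyl groups on ribosomal RNA (chromosome 7, 28169710 to 28179269, plus strand). It was at 61.9, 63.3 and 64.1 CPM in shScr, 48.5, 50.8 and 46.4 CPM with shRela-1, and 46.5, 52.4 and 51.9 CPM with shRela-2. All 6 knockdown samples were below the shScr samples, and the 2 knockdown groups overlapped. The log2 fold changes were -0.38 ± 0.051 with shRela-1 (edgeR adjusted p = 0.000371) and -0.33 ± 0.051 with shRela-2 (0.000754). The hairpins differed by 0.05 in Fbl, with a 95% interval from -0.06 to 0.16.

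Nolc1 encodes Nopp140, a chaperone of snoRNPs (chromosome 19, 46075863 to 46085530, plus strand). It was at 68.6, 69.0 and 73.6 CPM in shScr, 51.6, 53.1 and 53.5 CPM with shRela-1, and 64.6, 68.2 and 70.8 CPM with shRela-2. The shRela-1 samples stood apart from the 6 others, which overlapped. Nolc1 fell with shRela-1 by -0.42 ± 0.043 (edgeR adjusted p = 6.81e-05) and was at -0.05 ± 0.043 with shRela-2. Nop56, a core box C/D protein (chromosome 2, 130274430 to 130279313, plus strand), was at 98.4, 97.7 and 101 CPM in shScr, 86.2, 91.9 and 97.3 CPM with shRela-1, and 80.7, 87.7 and 90.5 CPM with shRela-2. All knockdown samples were below all shScr samples, by as little as 97.3 against 97.7 CPM for shRela-1. Nop56 fell with shRela-2 (-0.20 ± 0.053, edgeR adjusted p = 0.0159), a call lost without shScr replicate 3 (0.0613) or shRela-2 replicate 1 (0.0587). With shRela-1 it was at -0.11 ± 0.053 (edgeR adjusted p = 0.166, or 0.0143 with the replicate block).

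The other box C/D core gene, Nop58, did not pass in either comparison. Its means were 88.1 ± 6.89, 83.3 ± 4.63 and 87.2 ± 3.54 CPM (SD, n = 3; shScr, shRela-1 and shRela-2 here and below). Of the H/ACA genes, whose products turn uridines of ribosomal RNA into pseudouridines, Nhp2 fell with shRela-1 from 41.6 ± 2.42 to 34.9 ± 1.71 CPM. That call (-0.25 ± 0.070, edgeR adjusted p = 0.0239) was lost on leaving out shScr replicate 2 or 3 or shRela-1 replicate 1 or 2 (edgeR adjusted p from 0.0554 to 0.0982). Nhp2 was at -0.08 ± 0.070 with shRela-2. Gar1 was at 13.0 ± 0.789, 11.7 ± 0.152 and 11.4 ± 0.435 CPM, with both knockdown groups below all shScr samples. Its values of -0.15 ± 0.067 and -0.19 ± 0.068 did not pass (edgeR adjusted p = 0.132 and 0.0582), but with shRela-2 it passed with the replicate block (0.0273), with limma voom (adjusted p = 0.0486), with a filter of 1 CPM in 3 samples (0.0392) and without shScr replicate 1 (0.035). Dkc1, the gene of the pseudouridine synthase dyskerin on chromosome X, had the closest group means of the class, 26.1 ± 1.80, 25.8 ± 3.41 and 26.0 ± 1.85 CPM. The 95% intervals of its log2 fold changes still reached from -0.23 to 0.19 with shRela-1 and from -0.22 to 0.20 with shRela-2.

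Of the 10 small subunit factors, 1 fell with shRela-1, a share near the 12.4% of all genes, and 4 fell with shRela-2 (40%, against 15.4%). Heatr1 encodes a subunit of the complex that joins the nascent precursor RNA and is needed for RNA polymerase I transcription (chromosome 13, 12395027 to 12440289, plus strand). It was at 44.3, 47.9 and 49.4 CPM in shScr, 44.1, 43.9 and 45.7 CPM with shRela-1, and 35.1, 37.4 and 38.7 CPM with shRela-2. The shRela-2 samples were below all others. Heatr1 fell with shRela-2 by -0.35 ± 0.051 (edgeR adjusted p = 0.000533) and was at -0.08 ± 0.050 with shRela-1. Tsr1, a factor of late small subunit assembly with an E-box above (chromosome 11, 74898071 to 74909342, plus strand), was at 46.9, 44.1 and 49.0 CPM in shScr, 41.2, 47.6 and 49.2 CPM with shRela-1, and 36.0, 37.6 and 40.1 CPM with shRela-2. Again the shRela-2 samples were lowest and the shRela-1 samples spanned shScr. Tsr1 fell with shRela-2 (-0.30 ± 0.070, edgeR adjusted p = 0.00799). Its exons share 1240 bases with those of Srr on the opposite strand, and the libraries were not stranded, so there the reads of 1 gene cannot be told from those of the other.

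Wdr43 showed the other order. Its product belongs to the same early complex as that of Heatr1 (chromosome 17, 71615895 to 71659031, plus strand). Wdr43 was at 60.1, 65.1 and 67.8 CPM in shScr, 52.6, 54.5 and 59.6 CPM with shRela-1, and 64.7, 66.4 and 68.8 CPM with shRela-2. The shRela-1 samples were lowest, and the shRela-2 samples overlapped with shScr. It fell with shRela-1 by -0.21 ± 0.056 (edgeR adjusted p = 0.0193) and was at 0.05 ± 0.056 with shRela-2. The call was lost on leaving out shScr replicate 2 or 3 or shRela-1 replicate 1 or 2 (edgeR adjusted p from 0.0542 to 0.0819).

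The other small subunit factors that fell did so with shRela-2. Rrp9, a protein of the U3 snoRNP that guides the first cuts of the precursor, went from 33.4 ± 2.55 to 27.1 ± 2.52 CPM (-0.31 ± 0.089, edgeR adjusted p = 0.0241). Without shScr replicate 2 or 3 or shRela-2 replicate 1 or 2 it did not pass (0.0512 to 0.0906). Bms1, a GTPase of the small subunit processome, the particle that forms on the nascent precursor, went from 60.1 ± 1.14 to 54.8 ± 2.18 CPM (-0.13 ± 0.036, edgeR adjusted p = 0.0183), a call lost without shScr replicate 3 (0.0716) or shRela-2 replicate 1 (0.0772). Nop14, a partner of Noc4l in the processome, had the highest log2 fold change of the class with shRela-2, 0.08 ± 0.046 (edgeR adjusted p = 0.21). It was at 49.3, 54.5 and 54.9 CPM in shScr and at 56.3, 56.0 and 55.8 CPM with shRela-2, so the groups did not overlap. With shRela-1 its value of -0.09 ± 0.046 passed without shScr replicate 1 (edgeR adjusted p = 0.0418) and not with all samples (0.193). Wdr75, Utp20, Noc4l and Rrp12 passed in neither comparison with shScr, with values from -0.08 to 0.06 with shRela-1 and from -0.13 to -0.08 with shRela-2. With the replicate block, Utp20 (edgeR adjusted p = 0.0407) and Rrp12 (0.0264) passed with shRela-2.

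Large subunit factors had the largest changes of the 37, and these differed by hairpin. With shRela-1, 5 of 11 fell (45.5%, against 12.4% of all genes), with Rrs1 and Bop1 ahead, and with shRela-2 4 fell (36.4%, against 15.4%). Bop1 belongs with Pes1 and Wdr12 to the PeBoW complex, which is needed to process the precursor of the large subunit RNAs (chromosome 15, 76452989 to 76477277, minus strand). It was at 71.0, 71.0 and 71.7 CPM in shScr, 52.4, 51.1 and 50.2 CPM with shRela-1, and 69.3, 71.9 and 71.5 CPM with shRela-2. The shRela-1 samples were at 71.9% of the shScr mean and the shRela-2 samples at 99.5%. Bop1 fell with shRela-1 by -0.48 ± 0.032 (edgeR adjusted p = 2.95e-06), and its 95% interval with shRela-2 ran from -0.08 to 0.06.

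Rrs1 encodes a factor that brings the small 5S RNA into the large subunit (chromosome 1, 9545408 to 9547455, plus strand). It was at 33.1, 36.7 and 39.1 CPM in shScr, 23.9, 25.8 and 25.5 CPM with shRela-1, and 31.6, 35.5 and 37.2 CPM with shRela-2. As with Bop1, the shRela-1 samples stood apart and the others overlapped. The log2 fold change with shRela-1 was -0.53 ± 0.075 (edgeR adjusted p = 0.00053), the lowest of the 37 in that comparison, and with shRela-2 it was -0.06 ± 0.075.

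Wdr12, a partner of Bop1 in the PeBoW complex (chromosome 1, 60069785 to 60098645, minus strand), changed with the other hairpin. It was at 27.0, 29.4 and 28.1 CPM in shScr, 23.3, 27.9 and 27.4 CPM with shRela-1, and 20.3, 20.8 and 20.7 CPM with shRela-2. The shRela-2 samples were below all others and close together. Wdr12 fell with shRela-2 by -0.45 ± 0.070 (edgeR adjusted p = 0.000778), the lowest value of the 37 in that comparison, and was at -0.11 ± 0.070 with shRela-1. Pes1, the third PeBoW gene and one with an E-box, fell with shRela-2 from 88.5 ± 3.66 to 75.9 ± 1.22 CPM (-0.22 ± 0.037, edgeR adjusted p = 0.00112). With shRela-1 it was at 83.4 ± 1.07 CPM, below all shScr samples, and at -0.09 ± 0.036 did not pass (edgeR adjusted p = 0.117).

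Other large subunit factors changed by less. With shRela-1, Nip7 fell from 33.7 ± 0.921 to 28.7 ± 1.29 CPM (-0.23 ± 0.046, edgeR adjusted p = 0.0042). Rrp1b fell from 21.1 ± 0.674 to 18.3 ± 0.638 CPM (edgeR adjusted p = 0.0222) and Ppan from 37.6 ± 1.41 to 33.8 ± 0.479 CPM (0.0289). Rrp1b was not called on leaving out shScr replicate 2 or 3 or shRela-1 replicate 1 or 2 (0.053 to 0.0862), nor Ppan without any of shScr replicates 2 and 3 and shRela-1 replicates 1 to 3 (0.0531 to 0.108), nor without the filter on low counts (0.0502). With shRela-2, Nop2, a methyltransferase of the large subunit RNA with an E-box, fell from 82.7 ± 1.89 to 71.9 ± 3.13 CPM (-0.20 ± 0.040, edgeR adjusted p = 0.00318). Noc2l, part of a complex that accompanies the precursor out of the nucleolus, fell from 71.4 ± 4.56 to 58.2 ± 7.40 CPM (-0.29 ± 0.079, edgeR adjusted p = 0.0167). That call was lost without shScr replicate 2 (0.0504) or 3 (0.0657) or shRela-2 replicate 2 (0.0545), and exons of Noc2l share 598 bases with Samd11 on the opposite strand. With shRela-1 Noc2l was at -0.19 ± 0.079 (edgeR adjusted p = 0.115), past the threshold with the replicate block (0.00225), in a fit of only the 2 groups (0.0302) and without shRela-2 replicate 3 (0.04). Noc3l, the partner of Noc2l, had means of 32.4 ± 2.00, 30.8 ± 1.05 and 29.6 ± 1.09 CPM and passed with the block in shRela-2 (0.04). Nop16 was at 35.4 ± 1.88, 37.3 ± 2.40 and 37.6 ± 1.67 CPM and passed in no comparison.

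The remaining 5 genes encode abundant nucleolar proteins or proteins with further roles, and 2 of them fell with shRela-1 (40%, against 12.4% of all genes) and 3 with shRela-2 (60%, against 15.4%). Gnl3 encodes nucleostemin, a GTPase known from stem and dividing cells (chromosome 14, 31012433 to 31019152, minus strand). It was at 77.4, 81.7 and 76.8 CPM in shScr, 72.3, 73.7 and 79.7 CPM with shRela-1, and 57.1, 57.0 and 64.8 CPM with shRela-2. The shRela-2 samples were below all others. Gnl3 fell with shRela-2 by -0.40 ± 0.057 (edgeR adjusted p = 0.000456) and was at -0.06 ± 0.057 with shRela-1. Mybbp1a, a nucleolar binding partner of Myb with an E-box at its start (chromosome 11, 72441355 to 72451768, plus strand), was at 198, 208 and 217.5 CPM in shScr, 168, 182 and 183 CPM with shRela-1, and 152, 157 and 171 CPM with shRela-2. All knockdown samples were below all shScr samples. Mybbp1a fell with shRela-1 (-0.23 ± 0.056, edgeR adjusted p = 0.0143) and with shRela-2 (-0.38 ± 0.056, 0.000625), and the first of these calls was lost without shScr replicate 3 (0.0633).

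Ncl encodes nucleolin, a major RNA-binding protein of the nucleolus (chromosome 1, 86344719 to 86359400, minus strand). It was at 498, 568 and 565 CPM in shScr, 517, 547 and 564 CPM with shRela-1, and 437, 472 and 474 CPM with shRela-2. The shRela-2 samples were lowest. Ncl fell with shRela-2 by -0.24 ± 0.059 (edgeR adjusted p = 0.0111), and the 95% interval with shRela-1 ran from -0.13 to 0.13. Npm1, the gene of nucleophosmin, was at 516, 599 and 581 CPM in shScr, 514, 558 and 571 CPM with shRela-1, and 466, 506 and 523 CPM with shRela-2. The groups overlapped, since shScr replicate 1 was low. The value with shRela-2, -0.18 ± 0.066, did not pass (edgeR adjusted p = 0.0591). It passed with the replicate block (8.29e-06), with DESeq2 (adjusted p = 0.0262) and on leaving out shScr replicate 1 (0.0149) or shRela-1 replicate 1 (0.0434), and the same-numbered samples differed by -0.15, -0.24 and -0.15 in log2 CPM. Ddx21, a helicase that senses RNA polymerase I transcription, fell with shRela-1 from 153.9 ± 9.12 to 129 ± 10.7 CPM (-0.25 ± 0.068, edgeR adjusted p = 0.022). On leaving out shScr replicate 2 or 3 or shRela-1 replicate 1 or 2 it did not pass (0.063 to 0.0829). With shRela-2 it was at -0.14 ± 0.068 (edgeR adjusted p = 0.162, or 0.00116 with the replicate block).

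**Figure D2:**
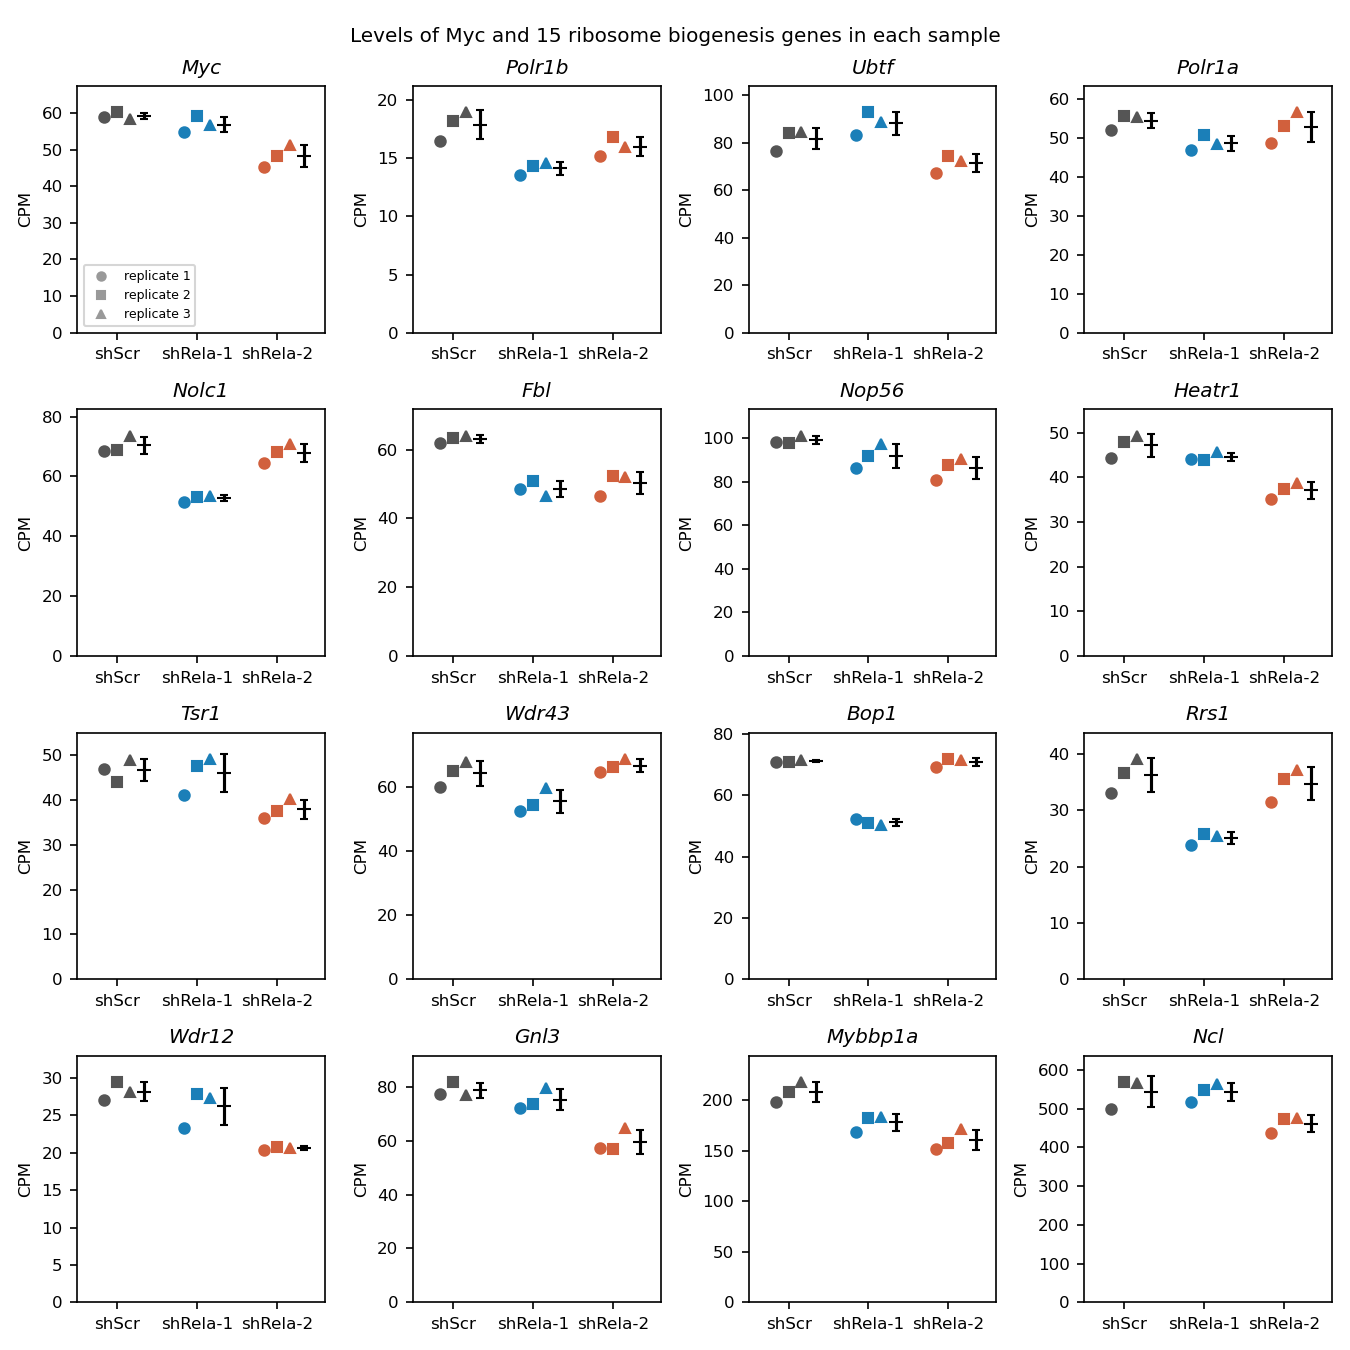
Levels in CPM (vertical axes, from 0) of Myc and the 15 ribosome biogenesis genes with the smallest p in their role groups, in each of the 9 samples. Circles, squares and triangles are replicates 1, 2 and 3, and the black marks are the mean and SD of each group (n = 3). Bop1 and Nolc1 have their 3 shRela-1 samples apart from the rest, Myc, Heatr1, Wdr12 and Gnl3 their 3 shRela-2 samples, and Fbl all 6 knockdown samples.

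Because most members fell with 1 hairpin and did not pass with the other, the hairpins were compared with each other. Between them 7 members were higher with shRela-2 (18.9%, against 20.0% of all genes) and 12 were lower (32.4%, against 19.9%). The share that was higher was thus near that of all genes. These comparisons share samples with the ones above, so members picked for falling with 1 hairpin only are already likely to differ between hairpins. The counts among such members, here and in the next paragraph, have no share of all genes beside them. They are therefore not read as a trait of the members. Of the 10 members that fell with shRela-1 and did not pass with shRela-2, 6 were higher with shRela-2 than with shRela-1, namely Bop1, Rrs1, Nolc1, Wdr43, Nip7 and Rrp1b. The largest of these differences were 0.47 ± 0.032 for Bop1 (edgeR adjusted p = 1.26e-06), 0.47 ± 0.076 for Rrs1 (0.00058) and 0.36 ± 0.043 for Nolc1 (6.97e-05). For Polr1b, Nhp2, Ppan and Ddx21 the difference between hairpins did not pass. With the replicate block it did for Polr1b (edgeR adjusted p = 0.0164), Nhp2 (0.00316) and Ddx21 (0.00445), each higher with shRela-2. The seventh gene higher with shRela-2 was Nop14 (0.17 ± 0.046, edgeR adjusted p = 0.0121).

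Of the 13 members that fell with shRela-2 and did not pass with shRela-1, 11 were lower with shRela-2 than with shRela-1. They were Myc, Ubtf, Heatr1, Rrp9, Bms1, Tsr1, Pes1, Wdr12, Nop2, Ncl and Gnl3. The largest differences were -0.35 ± 0.070 for Wdr12 (edgeR adjusted p = 0.00256), -0.34 ± 0.057 for Gnl3 (0.000841) and -0.31 ± 0.056 for Ubtf (0.00135). For Nop56 and Noc2l the difference did not pass, but it did with the replicate block (edgeR adjusted p = 0.0398 and 0.0442) and, for Noc2l, without shRela-2 replicate 3 (0.0305). Wdr75, which did not pass against shScr, was the twelfth (-0.11 ± 0.039, edgeR adjusted p = 0.046).

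Several of the calls between hairpins were close to the threshold. Nop2 (edgeR adjusted p = 0.0496) was not called without any single sample other than shRela-2 replicate 3 (0.0525 to 0.173), and Wdr75 without any other than shRela-1 replicate 2 (0.05 to 0.128). DESeq2 (adjusted p = 0.0706 and 0.0741) and limma voom (0.0579 and 0.0651) did not call these 2 genes either, nor did fits without the filter (0.0582 and 0.0631) or of only the 2 groups (0.0692 and 0.0587). RLE and upper quartile scaling did not call Nop2 (0.0509 and 0.053). Rrp9 lost its call on leaving out shRela-1 replicate 2 (0.0759) or 3 (0.0644) or shRela-2 replicate 1 (0.0705), and Nop14 without shRela-1 replicate 1 (0.052). Rrp1b lost it on leaving out shRela-1 replicate 1 or 2 or shRela-2 replicate 1 or 3 (0.0772 to 0.0881), without the filter (0.052) and in a fit of only the 2 groups (0.0533). With the replicate block 11 members were higher and 17 lower, against 25.8% and 26.1% of all genes. Besides the 5 genes with block values above, the genes added were Polr1a (edgeR adjusted p = 0.0184) among the higher, and Utp20 (0.000922), Npm1 (0.000177) and Mybbp1a (0.000168) among the lower. Polr1a (0.027) and Nhp2 (0.00906) also passed without shRela-2 replicate 1. Mybbp1a was lower with shRela-2 also with DESeq2 (adjusted p = 0.0355), with limma voom (0.0478) and on leaving out shRela-1 replicate 1 (0.0251) or shRela-2 replicate 3 (0.0203).

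The members also moved together between replicates of a group. The sample numbered 1 had the lowest CPM of its group for 30 of the 37 members in shScr, 26 in shRela-1 and 32 in shRela-2, compared with 5731, 5191 and 5690 of the 15369 tested genes. For 17 members (45.9%) it was lowest in all 3 groups, compared with 13.1% of all genes. Summed over the 37 genes, the level was 3005, 3278 and 3290.3 CPM in shScr replicates 1 to 3, 2843, 3015 and 3081 CPM with shRela-1, and 2663, 2847 and 2935 CPM with shRela-2. The sum of shRela-1 thus overlapped with that of shScr, and the sum of shRela-2 lay below it. Ncl and Npm1 weigh most in these sums. Without these 2 genes the sum was 1991 to 2144.5 CPM in shScr, 1812 to 1946.5 in shRela-1 and 1760 to 1938 in shRela-2. Both knockdown groups then lay below all shScr samples. Samples numbered 1 had the fewest counts in shScr and shRela-2 (49774667 and 51071566) and were between the others in shRela-1 (63663622), and the part of depth was not tested. When samples of the same number were subtracted, 25 members were lower with shRela-1 in all 3 pairs (67.6%, against 29.8% of all genes) and 3 were higher in all 3 (31.2%). With shRela-2, 29 were lower in all 3 pairs (78.4%, against 32.1%) and 3 higher (32.3%).

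**Figure D3:**
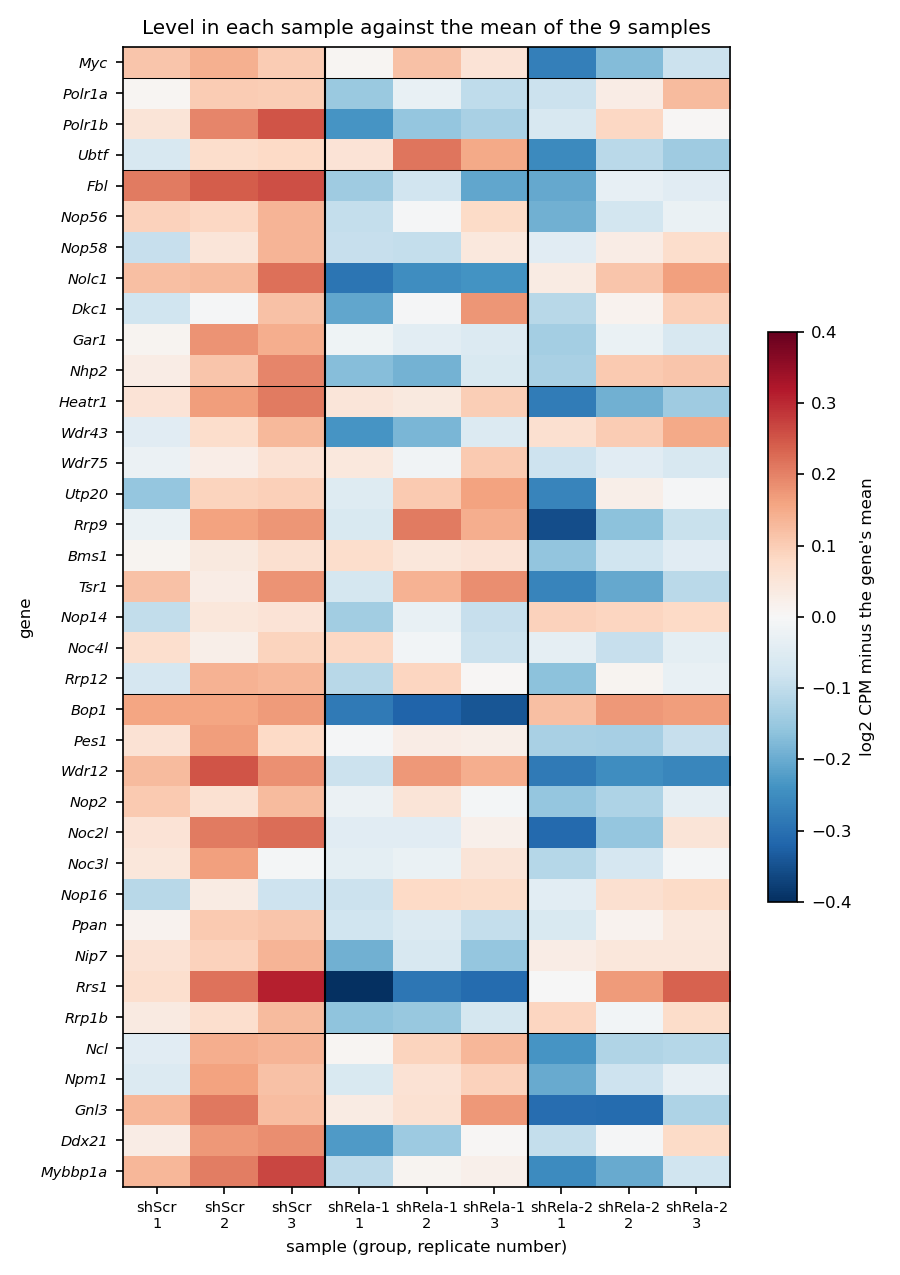
Log2 CPM of each of the 37 genes (rows, by role) in each of the 9 samples (columns), minus the gene's mean over the 9 samples, from blue (lower) to red (higher). The column of replicate 1 is bluer than its neighbours within each group, shRela-1 is blue for Bop1, Rrs1, Nolc1 and Fbl, and shRela-2 is blue for Myc, Heatr1, Wdr12 and Gnl3.

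Annotation shows what else the genes share. A snoRNA gene lies within 8 of the 37 on the same strand (21.6%; Nop56, Nop58, Dkc1, Wdr43, Tsr1, Ppan, Ncl and Gnl3 in GENCODE models of mm10), compared with 219 of 13910 tested protein-coding genes (1.57%). Of these 8, Wdr43 and Ppan fell with shRela-1, Nop56, Tsr1, Ncl and Gnl3 fell with shRela-2, and Nop58 and Dkc1 passed with neither. Of the 6 genes with an E-box in the window, Mybbp1a fell with each hairpin, Wdr43 with shRela-1, Nop2, Pes1 and Tsr1 with shRela-2, and Utp20 with neither. Among all 37 members, 32.4% fell with shRela-1 and 40.5% with shRela-2, against 12.4% and 15.4% of all genes. Whether either feature goes with the falls was not tested. Besides Tsr1 and Noc2l, 10 members share exon bases with a tested gene on the opposite strand, from 155 bases for Heatr1 with Lgals8 and 131 for Mybbp1a with Spns2 down to 5 for Nop56 with Idh3b. The others are Wdr12 with Carf (61), Rrp1b with Hsf2bp (54), Bop1 with Mroh1 (50), Dkc1 with Mpp1 (45), Nhp2 with Rmnd5b (44), Rrp9 with Parp3 (20) and Gnl3 with Pbrm1 (15).

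Letters of the 3′ UTRs were read because a hairpin can lower transcripts other than its target through short matches. The heptamers AGGTGTA for shRela-1 and GAAGCTA for shRela-2 had been picked earlier on these same samples as those most associated with lower genes, so their link to lower expression is no independent finding. AGGTGTA occurs in the 3′ UTR of 1171 tested genes (8.42%), of which 36.0% fell with shRela-1, compared with 11.0% of genes without it. Among the 37 it occurs in Bop1, and 11 of the 36 members without it fell with shRela-1. GAAGCTA occurs in 1313 genes (9.44%), of which 486 fell with shRela-2, compared with 1767 of 12602 genes without it. Among the 37 it occurs in Nop58, which did not pass with shRela-2 (-0.02 ± 0.061), and 15 of the 36 members without it fell with shRela-2.

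Some other genes of ribosome production fell with each hairpin too. In 4 further lists (RNA polymerase I and III factors, small subunit factors, large subunit factors and the RNA exosome), 41 of 159 tested genes fell with shRela-1 (25.8%, against 12.4% of all genes) and 7 rose (4.4%, against 12.3%), with a median log2 fold change of -0.06. The 7 became 14 with the replicate block and 4 on leaving out shScr replicate 1 or shRela-1 replicate 2 or 3. The shRela-2 counts were 36 lower (22.6%, against 15.4%) and 24 higher, a share near the 15.4% of all genes, with a median of -0.03. By list, 10 of 30 RNA polymerase I and III factors rose with shRela-2 (33.3%) and 5 fell (16.7%). Of 16 exosome genes, 4 rose there (2 to 4 with 1 sample left out) and 3 fell (1 to 3). Small and large subunit factors had 5 of 55 and 5 of 58 higher, and 14 of each lower (25.5% and 24.1%). With shRela-1, 7 of 55 small subunit factors fell, near the 12.4% of all genes (15 with the replicate block, against 18.9%). Large subunit factors made up 19 of the 41 genes that fell with shRela-1, of 58 tested. Among them Gtpbp4, a nucleolar GTPase, went from 65.1 ± 2.21 to 32.7 ± 2.90 CPM with shRela-1 and was at 66.0 ± 3.09 CPM with shRela-2. The exosome, which trims and degrades nuclear RNA, had 6 of 16 genes lower with shRela-1. Its cofactor C1d went from 25.0 ± 1.81 to 8.0 ± 0.212 CPM with shRela-1 and rose to 34.4 ± 1.60 CPM with shRela-2, and its 3′ UTR holds AGGTGTA. Pno1, a small subunit factor without either heptamer, fell with shRela-1 (-0.72 ± 0.043, edgeR adjusted p = 1.38e-06) and rose with shRela-2 (0.32 ± 0.042, 0.000274). Esf1, another small subunit factor, fell with shRela-2 (-0.67 ± 0.056, edgeR adjusted p = 1.52e-05), and its 3′ UTR holds GAAGCTA. So does that of Gtpbp4, which did not pass with shRela-2 (0.02, edgeR adjusted p = 0.845). Of the genes eligible to be named in the lists below, Ccnd2 and Kif11 hold GAAGCTA and fell with shRela-2. Mlxip and Mxd4 hold it too and rose with shRela-2 (0.44 and 0.16).

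Few ribosomal protein genes passed the test with shRela-1. Of 77 tested, 3 fell (3.9%, against 12.4% of all genes) and 4 rose there (5.19%, against 12.3%), with a median of 0.03. These counts rested on single samples and on the block. With the block they were 8 and 13, and with 1 sample left out 2 to 3 fell and 0 to 2 rose, with 0 on leaving out shScr replicate 2 or 3 or shRela-1 replicate 2. The shRela-2 counts were 17 lower (22.1%, against 15.4%) and 1 higher (1.3%, against 15.4%), with a median of -0.02, or 31 and 2 with the block. The single rise was lost without any 1 of the shScr or shRela-2 samples. Rpl23a (-0.33 ± 0.041), Rpl29 (-0.28 ± 0.037) and Rps7 (-0.27 ± 0.043) were among those that fell with shRela-2. Rpl26 was listed at 0 in every sample.

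In the network around Myc, 4 of 19 tested genes rose (21.1%) and 2 fell (10.5%) with each hairpin, against 12.3% and 12.4% of all genes with shRela-1 and 15.4% in each direction with shRela-2. With 1 sample left out, the shRela-1 counts were 2 to 5 that rose and 1 to 2 that fell, and the shRela-2 counts 2 to 4 of each, where the block gave 6 that fell. The counts of 2 that rose came without shScr replicate 2 in both comparisons and also without shRela-2 replicate 2 or 3 in the second. A single gene fell with shRela-1 under DESeq2 and without shScr replicate 1 or 3 or any shRela-1 sample, and 4 fell with shRela-2 without shRela-1 replicate 1. Fbxw7, which marks Myc protein for degradation, rose with shRela-1 by 0.41 ± 0.057 (edgeR adjusted p = 0.000497). Its rise with shRela-2 (0.20 ± 0.057, 0.0215) was lost without shScr replicate 2 or 3 or shRela-2 replicate 2 or 3 (0.0665 to 0.0778). Mxd4, an antagonist of Myc at the E-box, rose with shRela-1 by 0.30 ± 0.042 (0.000469) and with shRela-2 by 0.16 ± 0.042 (0.0128), the second not without shScr replicate 1 (0.0511) or shRela-2 replicate 3 (0.0525). Mlxip rose with shRela-1 by 0.20 ± 0.051 (edgeR adjusted p = 0.0171) and with shRela-2 by 0.44 ± 0.051 (0.000122). Its first call was lost without shScr replicate 2 (0.0661) or shRela-1 replicate 1 (0.063). Of 35 known Myc targets outside ribosome biogenesis, 7 fell with shRela-1 (20%, against 12.4% of all genes) and 2 rose (5.71%, against 12.3%), with 3 that fell on leaving out shScr replicate 2 or 3 or shRela-1 replicate 1. The shRela-2 counts were 13 lower (37.1%, against 15.4%) and 5 higher, a share near the 15.4% of all genes. Ccnd2, a cyclin with both heptamers in its 3′ UTR, went from 1396 ± 114 CPM to 602 ± 75.1 with shRela-2. With shRela-1 it was at 1115 ± 85.2 CPM, a fall that was not called on leaving out shScr replicate 2 or 3 or shRela-1 replicate 1 or 3 (edgeR adjusted p from 0.0647 to 0.0924). Hspe1 fell with shRela-2 (-0.67 ± 0.072, edgeR adjusted p = 7.69e-05), while Nme1 rose there (0.30 ± 0.038, 0.000191). The 3′ UTR of Nme1 holds AGGTGTA, and Nme1 was at -0.04 ± 0.038 with shRela-1. Polr3k and Sdad1 of the lists above hold AGGTGTA too and fell with shRela-1 (-0.75 and -0.55).

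Proliferation genes moved with the groups as well, and in opposite directions. Of 30 tested, 17 rose with shRela-1 (56.7%, against 12.3% of all genes) and 0 fell, also 0 at an unadjusted p under 0.05 (edgeR), with a median of 0.33. The block gave 26 that rose. The shRela-2 counts were 1 higher (3.33%) and 19 lower (63.3%), each against 15.4% of all genes, with a median of -0.49. Their summed level was 499 to 527 CPM in shScr, 612 to 695 in shRela-1 and 413 to 447 in shRela-2, with no overlap between groups. The ribosome biogenesis members had a negative median in both comparisons, and the part of proliferation in their values was not tested. Genes of the p53 response, which disturbed ribosome assembly can raise, went both ways. Of 20 tested, 7 rose (35%, against 12.3% of all genes) and 5 fell (25%, against 12.4%) with shRela-1. The shRela-2 counts were 5 higher (25%) and 6 lower (30%), each against 15.4%. Sesn2, a p53 target of the stress response, had log2 fold changes of 0.54 ± 0.061 and 0.33 ± 0.061, and rose in both comparisons. Zmat3, another p53 target, fell with shRela-1 (-0.80 ± 0.055). It rose with shRela-2 (0.17 ± 0.054, edgeR adjusted p = 0.0374), a call lost in a fit of only the 2 groups (0.0635) and without shScr replicate 1 or 3, shRela-1 replicate 2 or any 1 shRela-2 sample (0.0507 to 0.135).

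**Figure D4:**
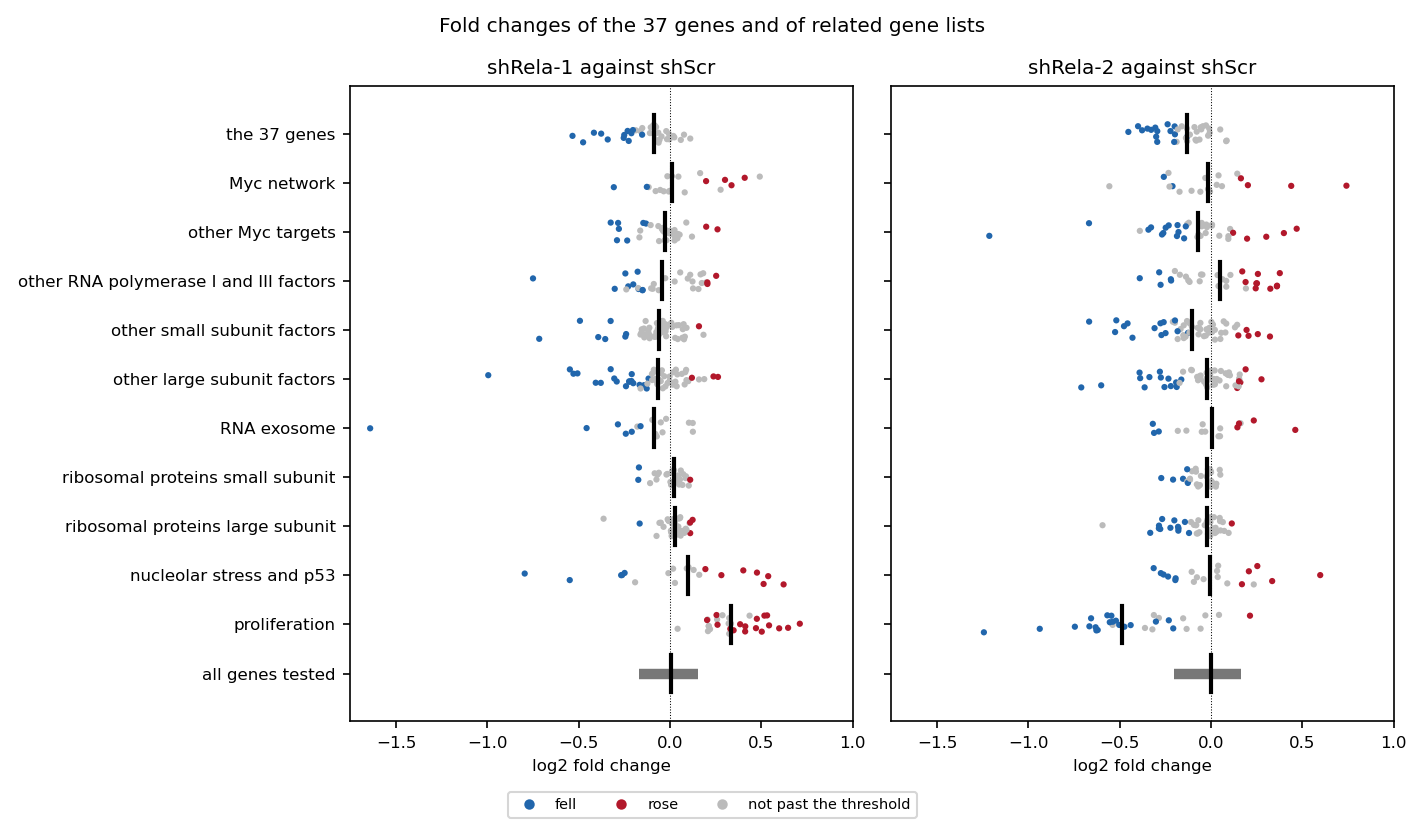
Log2 fold changes against shScr (horizontal axes) of the 37 genes and of each related list, 1 point per tested gene, with blue for genes that fell, red for genes that rose and grey for the rest. Black ticks are medians, and the grey bar at the bottom spans the quartiles of all tested genes around a median of 0.00. The medians of the 37 genes are -0.09 and -0.13, and those of the proliferation genes are 0.33 and -0.49.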

How the data were processed

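RNA sequencing of 9 samples (3 groups of 3, grouped by their titles) was used. The deposited values are raw counts for each gene symbol, not normalized by the authors. Build mm10, featureCounts 1.4.6, Subread, Bowtie2 2.2.6 and TopHat2 2.0.14 are named in the submitters' processing notes, without roles or settings. Per the labels' protocols, libraries were made with a TruSeq RNA v2 kit. No source used here says whether mates of a pair were counted separately. The value 1 occurs 2764 times in the table and the value 2 occurs 7984 times.

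Counts were tested with edgeR 4.0.16 (R 4.3.3; filterByExpr, TMM, glmQLFit and glmQLFTest) in 1 model with a mean per group over all 9 samples, with Benjamini-Hochberg adjustment over 15369 genes, a threshold of 0.05 and two-sided tests. The pipeline was tested on simulated data. CPM, fold changes (log2), SE and 95% intervals were computed from this fit. A fit with the replicate number as a block was the paired alternative, because samples with the same number in their titles deviated together from their group means (correlations of 0.189 to 0.415 over 9 pairs, compared with -0.306 to 0.0459 over 18 pairs of unlike numbers). Other alternatives were RLE and upper quartile scaling, no filter, a filter of at least 1 CPM in 3 samples, DESeq2 1.42.0, limma voom (limma 3.58.1), the 2 groups compared alone, and leaving out each sample. No 2 samples of the same group were alike within sampling noise. The chi-square per degree of freedom was 106 and 103 between shScr replicate 2 and shScr replicates 1 and 3. It was 19.1 between shScr replicates 1 and 3, and 11.3 to 32.5 within the knockdown groups.

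Values in every sample are given for Myc and, per role, for up to 3 members with the smallest p against shScr, and up to 3 called genes per related list were eligible to be named by the same measure. The 37 members and 16 lists were chosen with earlier results of these data known. Gene positions and 3′ UTRs came from GENCODE M21 and promoters from RefSeq (GRCm38.p6).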

Additional observations from a re-analysis of the deposited data

How the results depend on the processing

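With 1 sample left out, the number of members that fell with shRela-1 was 6 to 14 (12 with all samples). With shRela-2 it was 10 to 17, and between the hairpins 9 to 13 members were lower and 5 to 8 higher. For Myc the log2 fold changes ran from -0.087 to -0.031 with shRela-1, from -0.341 to -0.249 with shRela-2 and from -0.283 to -0.191 between hairpins. Over all genes, 2745 to 3824, 3766 to 4757 and 5280 to 6152 were called. With the replicate block, 1 member rose with shRela-1, 11 were higher with shRela-2 than with shRela-1, and 6034 genes were called with shRela-1 (3799 without it). The block changed no call of a member other than those given with the results. Sign changes were confined, over the settings run, to uncalled values near 0. With shRela-1, Rrp9 reached 0.00 with upper quartile scaling, and Ncl was at 0.000 with RLE size factors and DESeq2, 0.003 with upper quartile scaling and 0.001 without the filter. When 1 sample was left out, values of both signs occurred. With shRela-1 they ran from -0.112 to 0.077 for Dkc1, -0.005 to 0.051 for Wdr75, -0.018 to 0.119 for Utp20, -0.067 to 0.070 for Rrp9, -0.069 to 0.054 for Tsr1 and -0.062 to 0.032 for Ncl. With shRela-2 they ran from -0.097 to 0.008 for Polr1a, -0.074 to 0.037 for Nop58, -0.059 to 0.044 for Dkc1, -0.017 to 0.009 for Bop1, -0.125 to 0.001 for Rrs1 and -0.047 to 0.002 for Rrp1b. Between hairpins they ran from -0.089 to 0.10 for Dkc1 and -0.047 to 0.045 for Nop16. The cause was not tested, except that fewer samples leave less precision. The scalings moved the median of all genes by under 0.01.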
